A study of Mus musculus with 16 samples.

Results

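NP24 is 1 of 3 peptides that the series attributes to the subcommissural organ, and its effect on the RNA of cultured neurons was measured against the vehicle. Primary neurons came from brains of C57BL/6 mice, a common inbred laboratory strain, on postnatal day 0. They received NP24 (4 libraries) or Dulbecco's phosphate-buffered saline (DPBS), a buffered salt solution (4 control libraries). The libraries are named NP24-1 to NP24-4 and Ctrl1 to Ctrl4 in the labels and libraries 1 to 4 of each group here. The 8 libraries were taken by those labels from the 16 of the series, and the other 8 hold the same neurons given the peptides Tβ10 or Tβ4, 4 libraries each. All groups share the strain, age, tissue and culture, and none carries a genetic change. The labels give neither the sequence, dose nor exposure time of NP24, and they do not say whether the libraries of a group are separate cultures, so each p below measures the spread between these libraries, which may be technical. All 45724 genes of the table were available, and the 21774 that reached 10 normalized counts in 4 or more of the 8 libraries were tested.

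The subcommissural organ is a gland of modified ependymal cells in the roof of the brain's ventricles. It secretes the large glycoprotein SCO-spondin, encoded by Sspo, and other products into the cerebrospinal fluid, which carries them past the developing brain. A culture of neonatal brain neurons also keeps some glia, progenitors, microglia and vessel-associated cells, and its neurons respond to nutrient supply, redox state and electrical activity through a few well-known transcription factors. ATF4 raises amino acid transport and synthesis when amino acids or cystine run short. NRF2 raises glutathione and antioxidant enzymes, SREBP factors raise sterol and lipid synthesis, SRF answers to the pool of free actin monomer, and calcium entry at active synapses raises immediate early genes such as Npas4 and Egr1.

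Reads assigned to genes numbered 18564148 to 26717821 in the control libraries and 17822459 to 23363145 in the NP24 libraries. Levels below are normalized counts, that is reads per gene after the authors' scaling of each library by its own size factor, and 1 read was worth 0.806 to 1.18 of them. Differences are NP24 minus control on the scale of log2(normalized count + 1), with their standard error. Ribosomal RNA of mitochondria (mt-Rnr1, mt-Rnr2) held 9.32 to 14.2% of reads in controls and 5.98 to 8.12% with NP24, without overlap (two-sided exact permutation p = 0.0286, the smallest that 4 against 4 libraries allow). Control library 4 stood apart from the other 7 on the first principal component, and 19 genes with at least 10 normalized counts in each of the other libraries were at 0 in it, against at most 6 such genes for any other library. The labelled cell type was checked against markers: the 12 pan-neuronal markers had a median of 949 normalized counts per kilobase of exon in controls, against 115 for 21 astrocyte markers, 214 for 16 markers of the oligodendrocyte lineage, 18.9 for 20 microglia markers and 3.06 for 16 markers of pericytes and endothelium.

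With NP24, 572 genes changed at an adjusted p under 0.05 (limma with Benjamini-Hochberg adjustment over all genes tested), 2.63% of those tested. Of these, 253 rose (1.16% of genes tested) and 319 fell (1.47%). The falls were the larger changes, with a median log2 difference of -0.76 among the genes that fell and 0.49 among those that rose, and of the 124 genes that changed more than 2-fold, 106 fell and 18 rose. In 525 of the 572 the 4 NP24 libraries all lay on one side of the 4 controls, a separation that 9.84% of all genes tested showed, 5.07% with NP24 higher and 4.77% with NP24 lower. The genes that rose were long, with a median genomic span of 71.4 kb, against 16.4 kb for those that fell and 15.9 kb for genes that did not pass. The slope of a library's log2 level, relative to the mean of all libraries, on log10 gene span was -0.109 in control library 1, -0.0374 to -0.0263 in the other controls and -0.0933 to 0.126 with NP24, and with that slope as a covariate 1067 genes passed, 525 higher and 542 lower. The median log2 difference over all genes tested was -0.004, and 49.5% of them were above 0.

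How many genes passed depended on the libraries in the fit. Without control library 1 there were 106, without control libraries 2, 3 or 4 there were 243, 424 and 319, without NP24 libraries 1 or 3 there were 292 and 206, and without NP24 libraries 2 or 4 there were 760 and 710. Control library 1 mattered most: of the 155 genes that are named below as changed, 98 lost the call without it, though all 155 kept their direction in each fit that tested them. Of the 572 genes, 98 passed in all 8 of these fits, 63 lower and 35 higher, and 17 passed in none of them. With the spread estimated over all 16 libraries of the series 120 genes passed, 22 higher and 98 lower. With the share of mitochondrial rRNA as a covariate none passed in limma, which holds for these genes and every list below. In that fit 1002 of 21774 genes had an unadjusted p under 0.05, fewer than that threshold passes on average if no gene differs. The share of mitochondrial rRNA differed between the groups without overlap and cannot be told apart from the treatment. Scaling to library size in place of the authors' size factors gave 508 genes higher and 256 lower and shifted the median of all genes by 0.05.

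**Figure D1:**
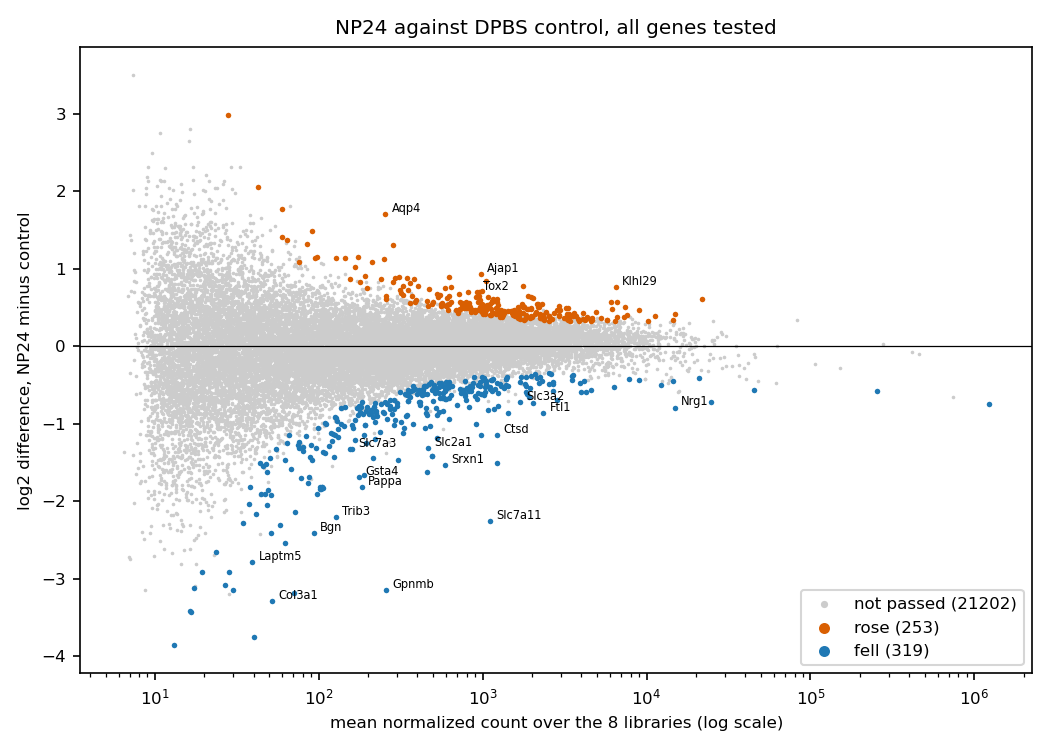
Each point is 1 of the 21774 genes tested, with the mean normalized count over the 8 libraries on a logarithmic horizontal axis and the log2 difference of NP24 minus control on the vertical axis; orange points rose and blue points fell at an adjusted p under 0.05. The 319 genes that fell reach further from 0 than the 253 that rose, and the labels mark some of the genes in the text that passed in all 8 fits leaving out 1 library.

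Some genes of amino acid supply and of the ATF4 branch of the stress response fell and none rose. Of 19 carriers of amino acids and cystine 5 fell and none rose, of 23 regulators and feedback genes of the ATF4 branch 9 fell and none rose, and of 17 enzymes of serine, asparagine and one-carbon metabolism 4 fell and none rose, where 1.47% of all genes tested fell. The medians of the 3 lists were -0.19, -0.50 and -0.25. The lists here and below were written with earlier results of these data known, so their shares are a description and no test. Promoters of these lists, and of those that follow, were searched for the letters that the matching transcription factor is known to bind, in the 250 bases before each RefSeq start (build GRCm38.p6) on both strands. The composite element of ATF4 (TGATGCAAT, TGATGAAAT, TGATGTAAT, TGATGCAAC or TGATGAAAC) was in 4 of 20 matched genes of the ATF4 branch, in none of 13 matched carriers and in 3 of 15 matched enzymes, against 1.08% of 27025 genes with a promoter in the table. Of the genes that fell, 8 of the ATF4 branch, 2 carriers and 4 enzymes had a promoter in the table, and of these only asparagine synthetase held it. The stretch of its promoter around the element (chr6:7693210-7693272, minus strand) is shown with the element in capitals.

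Asns: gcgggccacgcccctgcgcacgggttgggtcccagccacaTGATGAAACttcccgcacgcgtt

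Slc7a11, the transport subunit of the exchanger that takes up cystine and releases glutamate (ENSMUSG00000027737.10, GRCm38 chromosome 3, 49892526 to 50443614, minus strand), held 2480, 1907, 1074 and 1963 normalized counts in controls 1 to 4 and 347, 403, 372 and 364 in NP24 libraries 1 to 4. Every NP24 library was below every control and the NP24 libraries lay close together, at 20.02% of the control mean (log2 difference -2.26 ± 0.17, adjusted p = 1.45e-07). Its partner chain Slc3a2, the heavy subunit that brings it and the leucine carrier Slc7a5 to the membrane, held 2191, 2012, 1811 and 2401 in controls and 1336, 1466, 1177 and 1123 with NP24 (-0.72 ± 0.11, adjusted p = 0.00112). The cationic amino acid carrier Slc7a3 fell from 231 ± 68.3 to 88.8 ± 10.1 (mean ± SD, n = 4 in each group; -1.33 ± 0.23, adjusted p = 0.00352). Slc7a5 and the glutamine carrier Slc1a5 fell by less, by 0.66 and 1.15 on the log2 scale. The other 14 carriers did not pass, and their differences did not share a sign throughout, with 4 of the 19 above 0.

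In the ATF4 branch, Trib3, a pseudokinase that feeds back on ATF4 signalling, held 313, 127, 185 and 220.0 normalized counts in controls and 43.5, 40.5, 62.6 and 30.2 with NP24, without overlap, 20.9% of the control mean (-2.20 ± 0.30, adjusted p = 0.000503). Sesn2, a leucine sensor that restrains mTORC1, fell from 686 ± 83.3 to 373 ± 73.2 (-0.89 ± 0.15, adjusted p = 0.00221) and the secreted glycoprotein gene Stc2 from 274 ± 47.1 to 116 ± 25.05 (-1.25 ± 0.21, adjusted p = 0.0028). Atf4 itself held 2054, 1437, 1381 and 1679 in controls and 1227, 1235, 1078 and 1033 with NP24, a fall of 0.50 on the log2 scale (adjusted p = 0.0255). Atf5 (-0.94), Atf3 (-1.70), Eif4ebp1 (-0.87), which binds the cap factor eIF4E, Ddit3 (-0.66), the transcription factor CHOP of prolonged stress, and the stress-induced hormone gene Gdf15 (-2.92) fell too. Gdf15 and Atf3 are low in these cultures, at 37.1 to 77.97 and 91.8 to 144 normalized counts in controls.

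**Figure D2:**
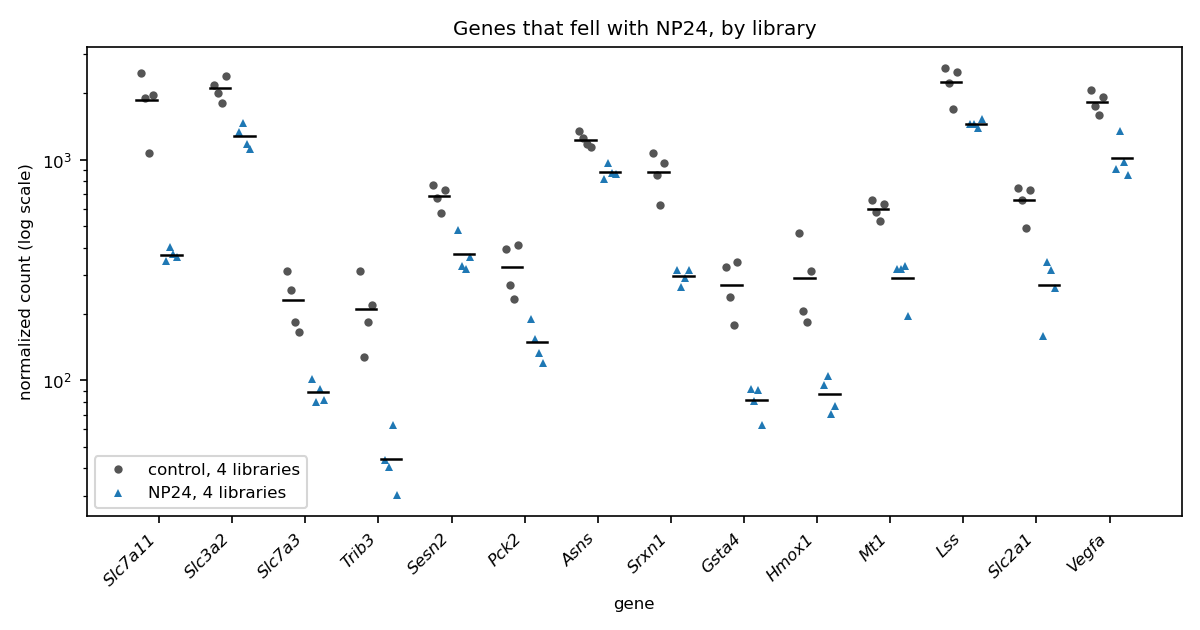
Normalized counts per library on a logarithmic axis for 14 genes of amino acid supply, the ATF4 branch, antioxidant defence, sterol and glucose metabolism; circles are the 4 control libraries, triangles the 4 NP24 libraries and bars the group means. For each gene shown the triangles lie below all circles, and the means lie furthest apart for Slc7a11 and Trib3.

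Of the enzymes, Pck2, the mitochondrial form of phosphoenolpyruvate carboxykinase, held 392, 269.6, 233 and 409 in controls and 189.9, 153, 133 and 120.1 with NP24 (-1.10 ± 0.21, adjusted p = 0.00616). Psat1 and Phgdh, which make serine from a glycolytic intermediate, fell by 0.56 and 0.74, and Asns fell from 1233 ± 91.8 to 878 ± 60.3 (-0.49 ± 0.10, adjusted p = 0.0142). None of 20 tRNA synthetases of the cytosol passed in limma, edgeR or the fits leaving out 1 library, and DESeq2 called 1 (median -0.09). Among 23 genes listed for protein folding in the endoplasmic reticulum only Herpud1 fell (-0.72, adjusted p = 0.0227), and the list's median was -0.01, or 0.04 with scaling to library size. Slc7a11, Slc3a2, Slc7a3, Trib3, Sesn2 and Stc2 passed in all 8 fits that left out 1 library. The call was lost only without control library 1 for Slc7a5, Atf5, Pck2 and Psat1, and only without control library 1 or 2 for Gdf15. It held in 5 of the 8 fits for Atf4 and Asns, in 4 for Eif4ebp1 and Herpud1, in 3 for Slc1a5, Ddit3 and Phgdh and in 1 for Atf3. Where the call was lost the log2 difference was -2.93 to -0.39.

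Antioxidant genes were among those that fell. Of 34 genes of glutathione metabolism and the NRF2 program 12 fell and none rose in limma, and 32 had a log2 difference below 0 (median -0.31). DESeq2 called 1 of the list higher and 14 lower. Srxn1, which reduces over-oxidized peroxiredoxins (ENSMUSG00000032802.8, GRCm38 chromosome 2, 152105516 to 152111376, plus strand), held 1069, 850.1, 622 and 965 normalized counts in controls and 316, 264, 292 and 316 with NP24, 33.9% of the control mean (-1.53 ± 0.15, adjusted p = 7.67e-06). The glutathione transferase gene Gsta4 fell from 272 ± 77.9 to 81.6 ± 13.2 (-1.69 ± 0.24, adjusted p = 0.000538). Hmox1, which degrades haem, held 465, 206, 185 and 313 in controls and 95.4, 104, 70.7 and 76.5 with NP24, so that each NP24 library was below each control (-1.66 ± 0.26, adjusted p = 0.00126).

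Glutathione synthesis was represented by Gclm, the modifier subunit of its first enzyme, which fell by 0.64 (adjusted p = 0.00685), and Gss, its second enzyme, by 0.89 (adjusted p = 0.00598). The gene of NRF2 itself, Nfe2l2, held 397, 355, 281 and 354 in controls and 169.5, 209, 189 and 221 with NP24 (-0.81 ± 0.17, adjusted p = 0.0117). The ferritin light chain gene Ftl1 (-0.86, with 26.5% of its exon bases shared with another gene model), the efflux pump Abcc4 (-1.03), Prdx6 (-0.75), thioredoxin reductase Txnrd1 (-0.47), Ptgr1 (-1.43) and Gstm1 (-0.51) fell as well. Nqo1, a quinone reductase often used to read out NRF2, did not pass and was low: it held 44.9, 29.02, 31.4 and 1.74 in controls, the last far below the rest, and 21.3, 17.1, 18.6 and 13.3 with NP24 (-0.03 ± 0.72, adjusted p = 0.99). Outside the list, Mt1, a metal-binding metallothionein, fell from 598 ± 58.9 to 292 ± 64.5 (-1.06 ± 0.16, adjusted p = 0.00125).

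The letters of the antioxidant response element, TGACNNNGC, were in 8 of 27 matched genes of this list and in 4 of the 9 matched genes that fell, against 11.5% of all 27025 genes. A stretch around 1 match for each of those 4 genes is shown, with the match in capitals on whichever strand it reads: Abcc4 at chr14:118706220-118706284, Gclm at chr3:122245383-122245471, Nfe2l2 at chr2:75704855-75704913 and Txnrd1 at chr10:82859074-82859162 (Abcc4 and Nfe2l2 on the minus strand). The window of another RefSeq start of Abcc4 also holds a match, at chr14:118676932-118676994 (minus strand), and is not shown.

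Abcc4: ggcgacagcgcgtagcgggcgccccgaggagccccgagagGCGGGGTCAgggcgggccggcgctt
Gclm: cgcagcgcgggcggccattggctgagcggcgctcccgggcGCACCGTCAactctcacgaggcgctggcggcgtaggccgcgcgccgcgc
Nfe2l2: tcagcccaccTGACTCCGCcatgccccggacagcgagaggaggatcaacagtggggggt
Txnrd1: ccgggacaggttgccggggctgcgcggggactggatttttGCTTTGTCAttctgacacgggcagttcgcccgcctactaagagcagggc

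A match is a description of these letters and shows no binding. Srxn1, Gsta4, Hmox1, Ftl1, Abcc4, Prdx6 and Mt1 passed in all 8 fits that left out 1 library. A loss of the call occurred only without control library 1 for Gclm, Gss and Nfe2l2. The call was kept in 5 of the 8 fits for Txnrd1, in 4 for Ptgr1 and in 1 for Gstm1. In the fits without the call the log2 difference was -1.48 to -0.38.

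Sterol genes lay below 0 by small steps. All 25 genes of cholesterol synthesis and uptake had a log2 difference below 0, from -0.62 to -0.06 (median -0.34), and 7 of them fell at the threshold. Lss, which closes the sterol ring, held 2595, 2230, 1702 and 2497 in controls and 1447, 1458, 1387 and 1523 with NP24 (-0.62 ± 0.11, adjusted p = 0.00521). Msmo1 (-0.54) and Tm7sf2 (-0.57) act later in the same pathway and Mvk (-0.61) acts early. Stard4 (-0.61) moves cholesterol through the cytosol. Sqle and Hmgcs1, enzymes at regulated steps, did not pass, with 2903, 2341, 2306 and 2334 against 2214, 2152, 1871 and 2044 normalized counts for Sqle (-0.25 ± 0.10, adjusted p = 0.187) and a difference of -0.12 ± 0.09 for Hmgcs1 (adjusted p = 0.515).

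Of 15 genes of fatty acid synthesis 2 fell, both of which make cytosolic acetyl-CoA: Acly, from 4586 ± 223 to 3305 ± 215 (-0.47 ± 0.09, adjusted p = 0.0045), and Acss2 (-0.61 ± 0.14, adjusted p = 0.02). Of 9 cholesterol export genes none passed in limma or edgeR, and DESeq2 called 1. The sterol response element TCACNCCAC was in 1 of 17 matched genes of the cholesterol list, Hmgcs1, and in none of 12 matched genes of fatty acid synthesis, against 1.22% of all genes. Acly passed in all 8 fits that left out 1 library. Significance was lost only without control library 1 for Lss and Msmo1, and only without NP24 library 3 or control library 1 for Tm7sf2, and only without NP24 library 1 or control library 1 for Stard4. The threshold was passed in 5 of the 8 fits for Acss2 and in 4 for Mvk. The log2 difference in fits that lost the call was -0.63 to -0.47. Without control library 1 no member of the cholesterol list passed, though the list's median stayed between -0.35 and -0.25 over all 8 such fits.

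In glucose metabolism the largest change was in uptake. Slc2a1, the glucose carrier GLUT1 (ENSMUSG00000028645.11, GRCm38 chromosome 4, 119108711 to 119137983, plus strand), held 747, 659, 490.0 and 732 normalized counts in controls and 158, 345, 317 and 261 with NP24, 41.2% of the control mean and without overlap (-1.32 ± 0.20, adjusted p = 0.000957). Of 22 genes of glycolysis Slc2a1, the isomerase Gpi1 (-0.49) and hexokinase 2, Hk2 (-1.03), fell and none rose (median -0.17). Of 14 hypoxia response genes only Vegfa, the vascular growth factor, fell: it held 2066, 1752, 1591 and 1923 in controls and 904, 1352, 977 and 848 with NP24 (-0.86 ± 0.13, adjusted p = 0.000934), while the list's median was -0.05, or 0.004 with scaling to library size. Txnip, which restrains glucose uptake, did not pass (0.61 ± 0.20, adjusted p = 0.0982), and its relative Arrdc3 fell by 0.38 (adjusted p = 0.025). Of 18 circadian clock genes the output factors Dbp (-1.31) and Tef (-0.40) fell. Slc2a1 and Vegfa passed in all 8 fits that left out 1 library. The threshold was missed only without NP24 library 3 or control library 1 for Gpi1. Significance held in 4 of the 8 fits for Arrdc3 and Dbp, in 2 for Hk2 and in 1 for Tef. Lost calls had a log2 difference of -1.33 to -0.33.

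Genes that neurons switch on with synaptic activity did not move as a block. Of 25 immediate early genes 5 fell and none rose in limma (median -0.28, range -1.62 to 2.12). DESeq2 called 1 of them higher and 6 lower. Npas4, a factor induced by calcium entry in neurons (ENSMUSG00000045903.9, GRCm38 chromosome 19, 4984355 to 4990316, minus strand), held 699, 531, 894 and 656 normalized counts in controls and 208, 276, 248 and 167 with NP24, 32.4% of the control mean (-1.62 ± 0.17, adjusted p = 2.46e-05). Egr1 held 1696, 1778, 1765 and 1967 in controls and 768, 844, 672 and 362 with NP24 (-1.51 ± 0.17, adjusted p = 7.21e-05). In both genes the groups were far apart, with the highest NP24 library below the lowest control. Btg2 (-0.85), Maff (-1.17) and Ier2 (-1.07) fell by less. Fos held 398, 311, 413 and 475 in controls and 285, 331, 285 and 219.7 with NP24 and did not pass (-0.51 ± 0.17, adjusted p = 0.106), nor did Arc, whose product acts at synapses (-0.23 ± 0.32, adjusted p = 0.765).

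The cyclic AMP response element TGACGTCA was in the promoters of 2 of 19 matched immediate early genes, Btg2 and Maff, against 1.77% of all genes, and its shorter core TGACG, which the full element contains, in 13 of 19 against 19.8%. Of the immediate early genes that fell, 3 had a promoter in the table: Npas4, Btg2 and Maff. All 3 held the core, as did genes that did not pass, among them Fos. Both genes with the full element fell, and the stretches around it are shown with the element in capitals (Btg2 at chr1:134079274-134079361, minus strand, and Maff at chr15:79347451-79347519, plus strand).

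Btg2: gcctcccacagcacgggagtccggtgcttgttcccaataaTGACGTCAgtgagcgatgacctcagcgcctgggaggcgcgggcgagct
Maff: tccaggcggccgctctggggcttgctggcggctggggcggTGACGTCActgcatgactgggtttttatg

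The later activity-response genes went both ways. Inhba, a subunit of activin, held 889.6, 978, 1013 and 809 in controls and 1400, 1481, 1386 and 1194 with NP24, all above the controls (0.57 ± 0.11, adjusted p = 0.00685), and Homer1, a postsynaptic scaffold gene, rose by 0.37 (adjusted p = 0.0419). Nrn1, the secreted neurite factor neuritin, fell from 306 ± 19.5 to 134 ± 16.8 (-1.20 ± 0.18, adjusted p = 0.000957), although 22.3% of its exon bases lie on the opposite strand to exons of Fars2, whose level is higher. Bdnf, the neurotrophin that activity induces, held 149, 101, 213 and 234 in controls and 67.6, 125, 182 and 101 with NP24, overlapping ranges (-0.56 ± 0.29, adjusted p = 0.336). Of 16 feedback genes of the MAP kinase pathway Spry2 (-0.56) and the phosphatase gene Dusp1 (-0.65) fell. Npas4, Egr1, Btg2, Inhba and Nrn1 passed in all 8 fits that left out 1 library. The call was lost only without control library 1 for Maff. It held in 3 of the 8 fits for Spry2 and in 1 for Ier2, Homer1 and Dusp1. Where the call was lost the log2 difference was -1.21 to -0.50 or 0.32 to 0.40.

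Targets of the actin-sensitive factors SRF, MRTF and YAP fell in part. Of 22 such genes 6 fell, 16 did not pass, none rose and 19 had a difference below 0 (median -0.35). The smooth muscle actin gene Acta2 held 177, 44.9, 159.6 and 115 normalized counts in controls and 46.3, 7.46, 5.80 and 7.12 with NP24, 1 NP24 library being far above the other 3 and just above control library 2 (-3.19 ± 0.56, adjusted p = 0.00352). The filamin gene Flna, an abundant cross-linker of actin, held 7417, 7950, 7031 and 7644 in controls and 4547, 6092, 5332 and 4966 with NP24 (-0.53 ± 0.09, adjusted p = 0.00366). Srf itself fell from 640.1 ± 52.9 to 446 ± 64.9 (-0.53 ± 0.13, adjusted p = 0.0367). The matricellular genes Ccn1 (-1.12) and Ccn2 (-1.90, with 23.2% of its exon bases shared with another gene model) and the myosin gene Myh9 (-0.47) fell. The CArG box, the element that SRF binds, was in 7 of 17 matched genes of the list, against 1.62% of all genes. It was also in 1 of 19 matched immediate early genes, Egr2, which did not pass. Of the 5 matched SRF, MRTF and YAP targets that fell only Srf held it, with 2 copies at chr17:46556175-46556284 (minus strand).

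Srf: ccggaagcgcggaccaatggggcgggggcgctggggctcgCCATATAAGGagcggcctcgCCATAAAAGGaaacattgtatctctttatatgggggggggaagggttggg

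Markers of pericytes and fibroblasts, given below, moved with these genes, and their part was not tested. No gene among 13 β-thymosins and monomer-binding proteins of actin passed in limma, edgeR or DESeq2 or in the fits leaving out 1 library (median 0.09). Tmsb4x, the gene of thymosin β4 and one of the more abundant transcripts, held 3526, 2737, 3145 and 2617 in controls and 3485, 3603, 3507 and 2519 with NP24 (0.12 ± 0.12, adjusted p = 0.651), and Tmsb10 differed by 0.05 ± 0.13 (adjusted p = 0.895). Acta2 and Flna passed in all 8 fits that left out 1 library. The call was kept in 3 of the 8 fits for Ccn1, in 2 for Srf and Myh9 and in 1 for Ccn2. In the fits without the call the log2 difference was -2.04 to -0.33.

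Some matrix genes fell, Col3a1 and Col1a1 by large factors from low levels. Of 15 collagen genes 6 fell and none rose (median -0.79). Col3a1 (ENSMUSG00000026043.18, GRCm38 chromosome 1, 45311538 to 45349706, plus strand) held 131, 56.2, 72.5 and 118 normalized counts in controls and 16.7, 11.7, 3.48 and 6.23 with NP24, 10.1% of the control mean (-3.29 ± 0.50, adjusted p = 0.00116), and Col1a1 held 75.6, 58.05, 119 and 86.1 and 19.5, 19.2, 4.64 and 24.9 (-2.40 ± 0.47, adjusted p = 0.00796). The vessel basement membrane gene Col4a1 fell from 1255 ± 209 to 823 ± 67.7 (-0.60 ± 0.12, adjusted p = 0.00873). Of 30 other matrix genes 9 fell, among them the proteoglycan gene Bgn (-2.41), Sparc (-1.06), the fibronectin gene Fn1 (-0.49) and the tenascin gene Tnc (-0.44). The other 2 that passed rose: Ncan, the neurocan that neurons and astrocytes deposit, by 0.39, and the fibrillin gene Fbn1 by 0.40.

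Some markers of the cells that make this matrix fell with it. Of the 15 fibroblast and meningeal markers 9 were tested and 4 fell, all of them matrix genes of the lists above, and their summed level was 3101 to 4082 in controls and 2426 to 2818 with NP24. Of 16 pericyte and endothelial markers 8 were tested and 3 fell, with a summed level of 830 to 1293 in controls and 654 to 777 with NP24: the pericyte genes Rgs5, with 185, 64.6, 132 and 149.5 in controls and 50.03, 27.7, 23.2 and 64.04 with NP24 (-1.68 ± 0.37, adjusted p = 0.0179), Pdgfrb (-0.95) and Anpep (-3.41). Ly6c1 was at 0 in all 8 libraries, and the endothelial genes Cldn5, Cdh5 and Kdr were below the level required for a test. In RNA from whole cultures fewer cells of a type and less RNA per cell cannot be told apart. Without control library 4 no marker of pericytes and endothelium passed, and 2 fibroblast markers fell. Without control library 1 neither Rgs5 nor Pdgfrb passed. Col3a1, Bgn and Sparc passed in all 8 fits that left out 1 library. Significance was lost only without control library 1 for Col1a1 and Col4a1, and only without control library 1 or 4 for Pdgfrb. The threshold was passed in 5 of the 8 fits for Rgs5, in 4 for Fn1, in 3 for Ncan and in 2 for Tnc and Fbn1. Anpep reached the level for a test only in the controls (16.9 to 60.9 normalized counts, against 0 to 6.96 with NP24). It was therefore not tested in the 4 fits that left out a control, and it passed in 3 of the other 4. Its call was also lost in DESeq2, with a pseudocount of 0.1 and with no filter on low values. The log2 difference in fits that lost the call was -2.95 to -0.31 or 0.34 to 0.42.

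Macrophage markers were low in these cultures, and some fell. Of 20 microglia and macrophage markers 13 were tested, 4 fell, none rose and the median difference was -1.28. Their summed level was 2281 to 2810 in controls and 1869 to 2038 with NP24, and Aif1, C1qa, Tyrobp, Trem2 and Tmem119 were below the level required for a test. Lyz2, a lysozyme of macrophages, held 146, 59.9, 73.3 and 143 normalized counts in controls and 24.1, 6.40, 25.5 and 16.01 with NP24 (-2.54 ± 0.45, adjusted p = 0.00413). Laptm5 (-2.78), the cathepsin gene Ctss (-2.05) and Cd68 (-1.28) fell without overlap between the groups.

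Some lysosomal genes fell too. Of 31 such genes 7 fell, none rose and 26 had a difference below 0 (median -0.32). Gpnmb, a lysosomal glycoprotein that macrophages and stressed cells express (ENSMUSG00000029816.10, GRCm38 chromosome 6, 49036546 to 49070929, plus strand), held 556, 495, 304 and 494 in controls and 34.3, 52.2, 83.5 and 42.7 with NP24, 11.5% of the control mean (-3.14 ± 0.26, adjusted p = 3.97e-07). Ctsd, the aspartic protease cathepsin D, held 2269, 1450, 1393 and 1623 in controls and 815, 869, 793 and 549.6 with NP24 (-1.15 ± 0.15, adjusted p = 0.000318), though 34.4% of its exon bases are shared with a gene model on the same strand. Lamp2 (-0.53), Cd63 (-0.87), prosaposin Psap (-0.37) and Atp6v0d2 (-2.16) fell by less or from low levels. Ctsd and Psap are expressed by neurons as well as by macrophages, and the part of the macrophage markers in these falls was not tested.

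Some genes of antigen presentation fell. Of 23 interferon response genes 11 were tested, and Ifit1, Isg15 and Rsad2 were among those below the level required for a test. Of the 11 tested 4 fell: B2m, the light chain of class I molecules, with 109, 109, 136 and 167 in controls and 33.4, 53.3, 89.3 and 27.6 with NP24 (-1.46 ± 0.34, adjusted p = 0.0226), the class I heavy chains H2-K1 (-1.63) and H2-D1 (-0.78), and Stat2 (-0.55). Without control library 4 none of the 4 passed, and the same held without control library 1. Of 23 genes of NF-kB, complement and reactive glia 14 were tested and none passed in limma, edgeR or DESeq2. Il6, Il1b, Tnf, Lcn2 and C3 were among those below the level required for a test. Laptm5, Gpnmb and Ctsd passed in all 8 fits that left out 1 library. The threshold was missed only without control library 1 for Lyz2, Ctss and Cd68. Significance held in 5 of the 8 fits for Lamp2, in 4 for H2-K1, in 3 for Cd63, Psap and B2m, in 2 for Atp6v0d2 and in 1 for H2-D1 and Stat2. Lost calls had a log2 difference of -2.35 to -0.32.

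Some targets of p53 fell. Of 20 p53 target and growth arrest genes 6 fell, none rose and 18 had a difference below 0 (median -0.56). Cdkn1a, the cell cycle inhibitor p21, held 786, 416, 384 and 456 normalized counts in controls, the first far above the rest, and 249, 254, 247 and 221 with NP24 (-1.01 ± 0.18, adjusted p = 0.00466). The nuclease gene Aen held 960.4, 922, 837 and 1122 and 569.8, 663, 621 and 588 (-0.65 ± 0.12, adjusted p = 0.0045). Gadd45g (-1.02), the RNA-binding protein gene Zmat3 (-0.51), the death receptor gene Eda2r (-0.87) and Ccng1 (-0.44) fell. Of 20 Bcl2 family genes and caspases only Bcl2l2, a survival factor, fell (-0.55), and the death effector Bak1 did not pass. Of 29 cell cycle and replication genes none passed in limma, edgeR or the fits leaving out 1 library, and DESeq2 called 1 (median 0.03). Cdkn1a and Aen passed in all 8 fits that left out 1 library. The call was lost only without control library 1 for Gadd45g, and only without control library 1 or 2 for Zmat3. It held in 3 of the 8 fits for Eda2r, in 2 for Ccng1 and in 1 for Bcl2l2. Where the call was lost the log2 difference was -0.98 to -0.34.

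**Figure D3:**
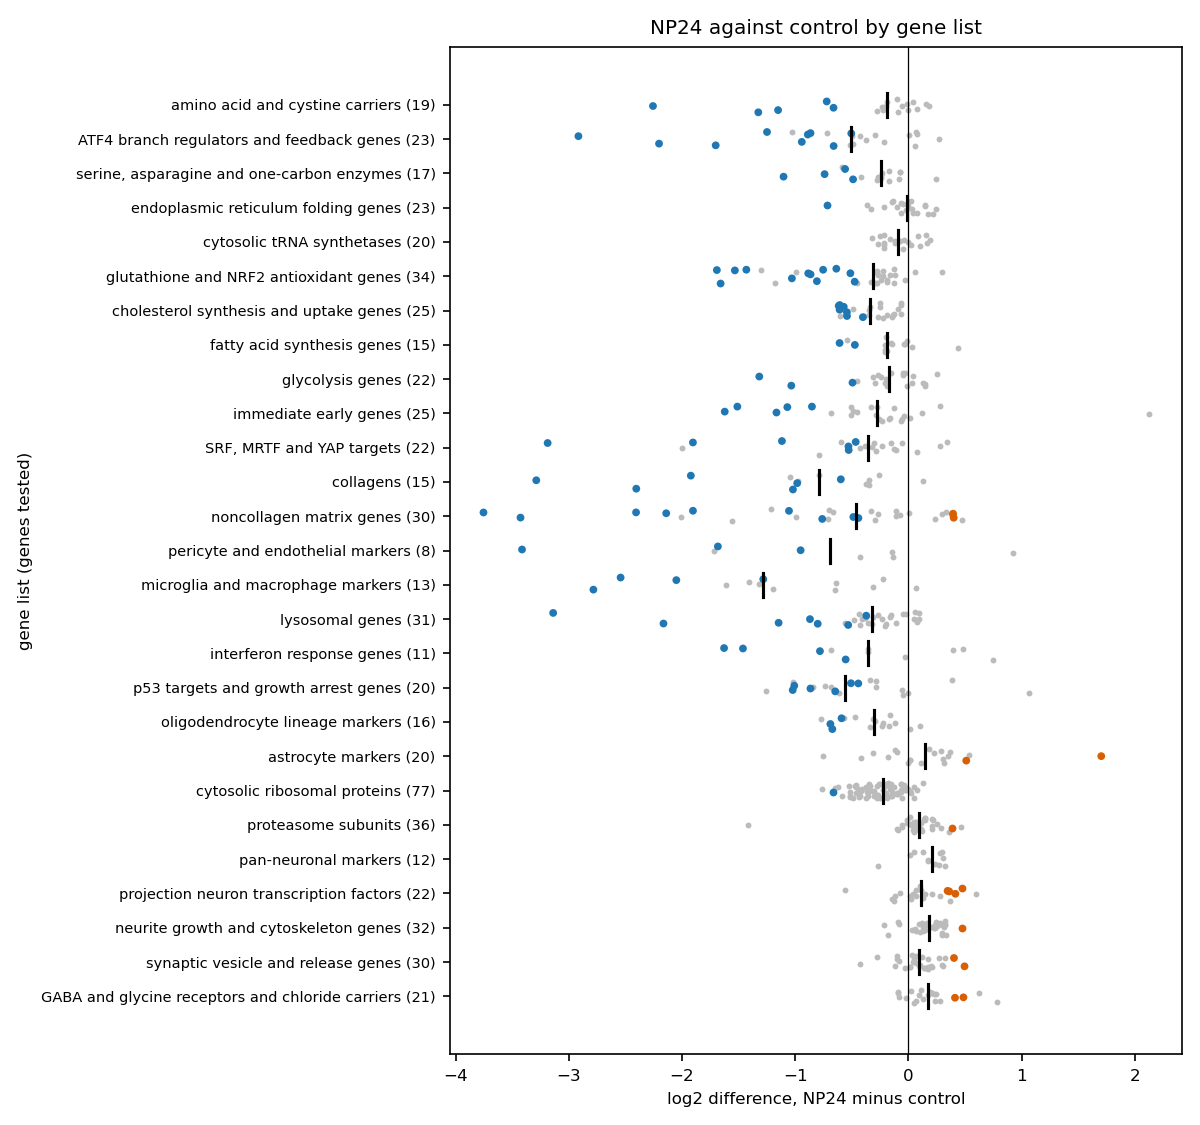
Log2 differences of NP24 minus control for the tested members of 27 gene lists, 1 point a gene; filled points passed at an adjusted p under 0.05, orange higher and blue lower, grey points did not pass, and the black bar is the list's median. The lists of amino acid, stress, antioxidant, sterol, matrix and macrophage genes hold blue points and no or few orange ones, and the medians of the neuronal lists lie above 0.

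Several lists of neuronal genes held members that rose, by small steps. Over all genes tested 1.16% rose and 49.5% had a difference above 0. With the spread estimated over all 16 libraries no member of the neuronal lists in this and the next 2 paragraphs passed as higher. Of 22 transcription factors of projection neurons 4 rose, none fell and the median was 0.11. Cux1, a factor of upper cortical layers (ENSMUSG00000029705.17, GRCm38 chromosome 5, 136248135 to 136567490, minus strand), held 4679, 5008, 5647 and 5272 normalized counts in controls and 7174, 6626, 7692 and 7178 with NP24 (0.48 ± 0.09, adjusted p = 0.0045), and all NP24 libraries lay above all controls. Bcl11b, the factor CTIP2 of deep layers and striatum, held 3758, 4048, 4196 and 3853 and 5020, 5440, 4955 and 4747 (0.35 ± 0.08, adjusted p = 0.0307). Mef2c (0.42) and Zbtb18 (0.36) completed the 4.

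None of the 12 pan-neuronal markers passed in limma or edgeR (DESeq2 called 4, all higher), yet 11 were above 0, with a median of 0.21. Their summed level was 87919 to 98299 in controls and 101850 to 110794 with NP24, without overlap. Tubb3, the neuronal β-tubulin, held 6078, 6134, 5981 and 5815 in controls and 8694, 8457, 7537 and 5702 with NP24, where library 4 lay below every control (0.32 ± 0.11, adjusted p = 0.111). Of 32 genes of neurite growth and the cytoskeleton 28 were above 0 (median 0.18) and Basp1, a growth cone protein, passed: it held 7678, 7368, 7442 and 7726 in controls and 11001, 11542, 10423 and 9039 with NP24 (0.47 ± 0.09, adjusted p = 0.00578). The number of these genes that rose was between 1 and 11 over the fits leaving out 1 library.

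Of 30 genes of synaptic vesicles and release 2 rose: Syt4, a synaptotagmin induced by activity, from 2741 ± 319 to 3856 ± 314 (0.50 ± 0.10, adjusted p = 0.008), and Syn1, synapsin 1, which tethers vesicles, with 2432, 2629, 2640 and 2381 in controls and 3411, 3305, 3311 and 3289 with NP24 (0.40 ± 0.08, adjusted p = 0.0131). Of 21 receptors of GABA and glycine and chloride carriers the subunits Gabra5 (0.49) and Gabbr2 (0.41) rose, 17 were above 0 and the median was 0.18. Of 37 glutamate receptors and postsynaptic scaffold genes none passed in limma, edgeR called 1 lower, DESeq2 2 lower and the fits leaving out 1 library 0 to 6 lower (median 0.04). Of 34 voltage-gated channel subunits none passed in limma, edgeR or DESeq2, and 0 to 4 were lower in the fits leaving out 1 library. Of 21 interneuron genes Reln, the secreted glycoprotein reelin, rose by 0.43 and the transcription factor Maf by 0.48.

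**Figure D4:**
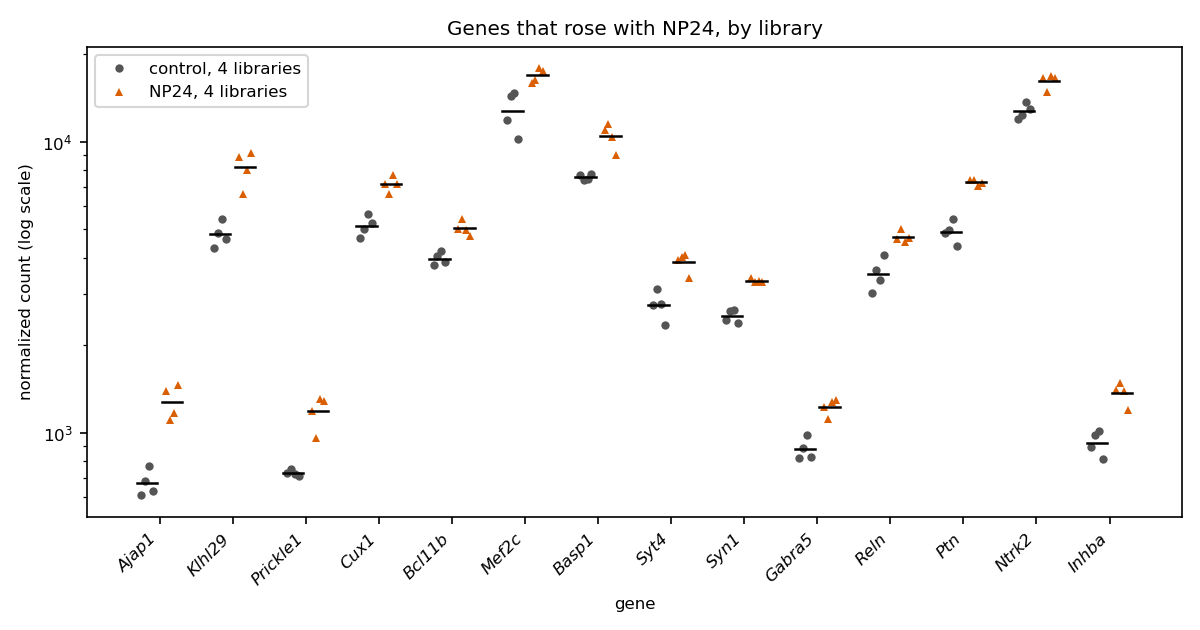
Normalized counts per library on a logarithmic axis for 14 genes that rose; circles are the 4 control libraries, triangles the 4 NP24 libraries and bars the group means. The triangles lie above all circles for each gene shown, with log2 differences of 0.34 to 0.93.

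Outside the lists above, single genes of various kinds rose. Ajap1, an adherens junction protein (ENSMUSG00000039546.9, GRCm38 chromosome 4, 153373221 to 153482811, minus strand), held 608, 682, 767 and 628 normalized counts in controls and 1391, 1103, 1170 and 1452 with NP24 (0.93 ± 0.12, adjusted p = 0.000297). Klhl29, a Kelch-family gene, held 4310, 4852, 5448 and 4645 and 8879, 6626, 8015 and 9184 (0.76 ± 0.10, adjusted p = 0.000503), and Prickle1, a component of planar cell polarity, rose from 725 ± 16.8 to 1184 ± 162 (0.70 ± 0.11, adjusted p = 0.00221). Each of these 3 passed whichever library was left out. So did the cadherin Cdh8 (0.64), protein kinase C alpha, Prkca (0.57), the leucine-rich repeat genes Lrrn2 (0.50) and Lrrn3 (0.50), the orphan receptor Gpr63 (0.88), the calcium-binding Necab1 (0.84), Tox2 (0.70), Jakmip1 (0.63, with 46.9% of its exon bases shared with another gene model of like level), Sphkap (0.64), Clmp (0.52) and the heparan sulfate enzyme Hs3st5 (0.75).

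Of 25 neurotrophic and insulin-like growth factor genes 2 rose and 4 fell. Ptn, the heparin-binding growth factor pleiotrophin (ENSMUSG00000029838.11, GRCm38 chromosome 6, 36714929 to 36810220, minus strand), held 4865, 4988, 5413 and 4397 in controls and 7413, 7375, 7070 and 7191 with NP24 (0.57 ± 0.09, adjusted p = 0.00099), and Ntrk2, the receptor TrkB of brain-derived neurotrophic factor, held 11969, 12398, 13663 and 13014 and 16527, 14817, 16802 and 16588 (0.34 ± 0.09, adjusted p = 0.0339). The protease gene Pappa, which frees insulin-like growth factors from their binding proteins, fell from 284 ± 107 to 83.4 ± 36.4 (-1.81 ± 0.32, adjusted p = 0.00352), as did Igfbp3, one of those binding proteins (-0.85), the cytokine gene Clcf1 (-2.31) and neurotrophin 3, Ntf3 (-0.51). Of 37 Wnt pathway genes Wnt7b, a ligand made by cortical neurons, rose from 607 ± 82.4 to 890.2 ± 99.2 (0.55 ± 0.12, adjusted p = 0.0191) and the secreted inhibitor gene Wif1 rose by 1.40, with 20.9 to 46.8 normalized counts in controls (adjusted p = 0.0448). Of 42 axon guidance genes Plxnd1 (0.51), Sema3c (0.57) and Efnb2 (0.34) rose and Dcc fell (-0.50). Of 34 genes of Notch, BMP and hedgehog signalling none passed in limma or edgeR, and DESeq2 called 1. Cux1, Basp1, Syt4, Ptn and Pappa passed in all 8 fits that left out 1 library. A loss of the call occurred only without NP24 library 3 or control library 1 for Syn1, Gabra5 and Reln, and only without control library 1 for Clcf1. The call was kept in 4 of the 8 fits for Mef2c, Maf, Igfbp3, Wnt7b and Plxnd1, in 3 for Bcl11b, Zbtb18, Gabbr2 and Ntrk2, in 2 for Sema3c and Efnb2 and in none for Ntf3 and Wif1. In the fits without the call the log2 difference was -2.19 to -0.46 or 0.28 to 1.60.

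Some of the most abundant neuronal transcripts fell. Nrg1, the growth factor neuregulin 1 (ENSMUSG00000062991.9, GRCm38 chromosome 8, 31814551 to 32884029, minus strand), held 19947, 18436, 19697 and 17101 normalized counts in controls and 10590, 8675, 10399 and 14453 with NP24 (-0.79 ± 0.12, adjusted p = 0.000877). The netrin receptor gene Dcc held 13424, 14109, 15165 and 14630 in controls and 9960, 8841, 9579 and 12597 with NP24 (-0.50 ± 0.10, adjusted p = 0.00893). The adhesion gene Opcml (-0.45), the channel-modulating factor gene Fgf14 (-0.44), the exocyst gene Exoc4 (-0.43) and the protocadherin gene Pcdh9 (-0.40) fell too. The genomic spans are 1069 kb for Nrg1, 1097 kb for Dcc and 1135 kb for Opcml. Cpeb1, the gene of a protein that binds the cytoplasmic polyadenylation element, fell from 729 ± 113 to 323 ± 57.6 (-1.18 ± 0.15, adjusted p = 0.000297).

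Some nuclear and related long noncoding RNAs fell. Of 15 of them 3 fell and 1 rose (median -0.26). Neat1, which builds paraspeckles, held 449, 294, 322 and 316 in controls and 183, 188, 184 and 153 with NP24 (-0.95 ± 0.18, adjusted p = 0.00531), and Malat1, the most abundant of them, fell by 0.58 (adjusted p = 0.0241). The snoRNA host gene Gas5 fell by 0.55, and Pantr1 rose by 0.37. Outside this list Rn7sk, the RNA that holds back the elongation factor P-TEFb, fell by 0.72 (adjusted p = 0.0102). Of the 15 mitochondrially encoded genes mt-Rnr2 fell (-0.74 ± 0.19, adjusted p = 0.0369). Nrg1 and Cpeb1 passed in all 8 fits that left out 1 library. Significance was lost only without NP24 library 3 for Dcc, and only without control library 1 for Neat1 and Rn7sk. The threshold was passed in 5 of the 8 fits for Gas5, in 3 for Exoc4, Malat1 and mt-Rnr2, in 2 for Opcml and Fgf14 and in 1 for Pcdh9 and Pantr1. The log2 difference in fits that lost the call was -0.81 to -0.31 or 0.30 to 0.42.

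Glial and progenitor genes went in different directions. Of 20 astrocyte markers 2 rose and none fell (median 0.15): the water channel gene Aqp4, with 59.1, 167, 160.4 and 115 in controls and 458, 415, 330.4 and 334 with NP24 (1.70 ± 0.25, adjusted p = 0.000934), and the bicarbonate carrier gene Slc4a4 (0.51 ± 0.11, adjusted p = 0.0114). The summed level of the astrocyte markers was 16266 to 19574 in controls and 20394 to 22383 with NP24. Gfap, the filament protein of reactive astrocytes, held 248, 260.3, 387 and 504 in controls and 533, 520.2, 401 and 506 with NP24 and did not pass (0.54 ± 0.19, adjusted p = 0.129). Of 16 markers of the oligodendrocyte lineage 3 fell and 14 were below 0 (median -0.30): Mbp, the myelin basic protein gene, held 4983, 4951, 4235 and 5060 in controls and 3596, 3204, 2764 and 3224 with NP24 (-0.59 ± 0.10, adjusted p = 0.00183), and the lineage factors Olig2 (-0.67) and Nkx2-2 (-0.69) fell. Of 14 radial glia and progenitor markers the filament genes Nes, from 986 ± 100.1 to 666 ± 125 (-0.58 ± 0.13, adjusted p = 0.02), and Vim (-0.60) fell. Aqp4 and Mbp passed in all 8 fits that left out 1 library. The threshold was missed only without control library 1 or 2 for Slc4a4. Significance held in 5 of the 8 fits for Olig2 and Nes, in 4 for Nkx2-2 and in 3 for Vim. Lost calls had a log2 difference of -0.72 to -0.44 or 0.46 to 0.49.

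Housekeeping machinery changed little in single genes. Of 77 cytosolic ribosomal protein genes only Rpl13 fell (-0.67, adjusted p = 0.0364) while 71 were below 0 (median -0.23), and DESeq2 called 9, all lower. Of 36 proteasome subunits Psmd1 rose (0.39, adjusted p = 0.025) and 29 were above 0 (median 0.09). Of 80 nuclear genes of oxidative phosphorylation Uqcrq fell (-0.53, adjusted p = 0.0433), with 42 above and 38 below 0 (median 0.03). Of 22 heat shock and cochaperone genes Dnajc25 rose (1.08, adjusted p = 0.0442). Of 54 replication-dependent histone genes none passed in limma or edgeR, and DESeq2 called 1 higher (median -0.25). The 4 markers of ependymal and choroid plexus cells with enough reads did not pass, and Sspo, the gene of the organ's own glycoprotein, held 23.6, 41.2, 27.4 and 4.35 in controls and 40.8, 13.9, 17.4 and 63.1 with NP24 (0.55 ± 0.63, adjusted p = 0.715). The call held in 4 of the 8 fits for Psmd1, in 2 for Rpl13 and Dnajc25 and in 1 for Uqcrq. Where the call was lost the log2 difference was -0.72 to -0.41 or 0.35 to 1.29.

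NP24 was compared directly with the other peptides in 1 fit of all 16 libraries. Against Tβ10, 0 of 24232 genes passed in limma (0% of those tested), and edgeR and DESeq2 called 0 as well. In limma 591 of the 24232 had an unadjusted p under 0.05, fewer than that threshold passes on average if no gene differs. The genes named as nearest to the threshold were Pdk3, Pitpnm2os2 and Cfdp1 (higher with NP24) and Naip2, Vgll3 and Cntf (lower), each with an adjusted p of 0.9998, and none of these passed. For Slc7a11 the NP24 libraries held 372 ± 23.3 and the Tβ10 libraries 444 ± 83.8, a difference of -0.24 ± 0.20, and for Npas4 225 ± 47.5 and 252 ± 27.8, a difference of -0.18 ± 0.18. Against the shared controls each peptide had its own value for these genes, -2.26 with NP24 and -2.02 with Tβ10 for Slc7a11, and -1.62 and -1.44 for Npas4. A difference that does not pass does not show that the peptides act alike: for Slc7a11 the 95% interval of the difference was -0.65 to 0.17 and for Ajap1 -0.19 to 0.46.

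Against Tβ4, 507 genes passed (2.09%), 107 higher and 400 lower with NP24. Npas4 held 208, 276, 248 and 167 in the NP24 libraries and 1362, 886, 1092 and 1004 in the Tβ4 libraries, a difference of -2.27 ± 0.18 (adjusted p = 4.4e-07). The controls, at 699, 531, 894 and 656, lay between them, 1 of them just within the range of Tβ4. Slc7a11 held 1513, 1075, 935 and 1078 with Tβ4, above every NP24 library (-1.61 ± 0.20, adjusted p = 0.000245). Ajap1 was higher with NP24 than with Tβ4 by 1.39 ± 0.16 (adjusted p = 0.000158), and the kinase gene Dclk3 by 1.33 ± 0.18, Maf by 0.95 ± 0.14 and Jakmip1, whose shared exon bases are given above, by 0.78 ± 0.13. Tg and Sla were also higher with NP24, but Sla lies within Tg, so their reads are not separate. Among the 8 lower genes with the smallest p were matrix and vessel genes: Col3a1 held 16.7, 11.7, 3.48 and 6.23 with NP24 and 467, 116, 266 and 218 with Tβ4 (-4.68 ± 0.59), Bgn differed by -3.91 ± 0.47, Rgs5 by -3.42 ± 0.43 and Fn1 by -0.95 ± 0.12. For Bgn and Rgs5 every Tβ4 library was also above every control, and for Npas4 and Col3a1 the ranges of Tβ4 and control overlapped.

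The count against Tβ4 rested on the libraries in the fit. Within the 8 libraries of the 2 peptides 109 genes passed, 11 higher and 98 lower, while in the fit of all groups without Tβ4 library 1 the count was 104, without Tβ4 library 4 it was 266, without any 1 of the NP24 libraries 286 to 339, and without Tβ4 library 2 it was 1392. Mitochondrial rRNA took 8.25 to 24.3% of reads in the Tβ4 libraries against 5.98 to 8.12% with NP24, and its part in these differences was not tested. Scaling to library size moved the median of all genes from -0.006 to 0.13 and gave 363 genes higher and 269 lower with NP24. The split of directions in this comparison therefore depended on the scaling.

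**Figure D5:**
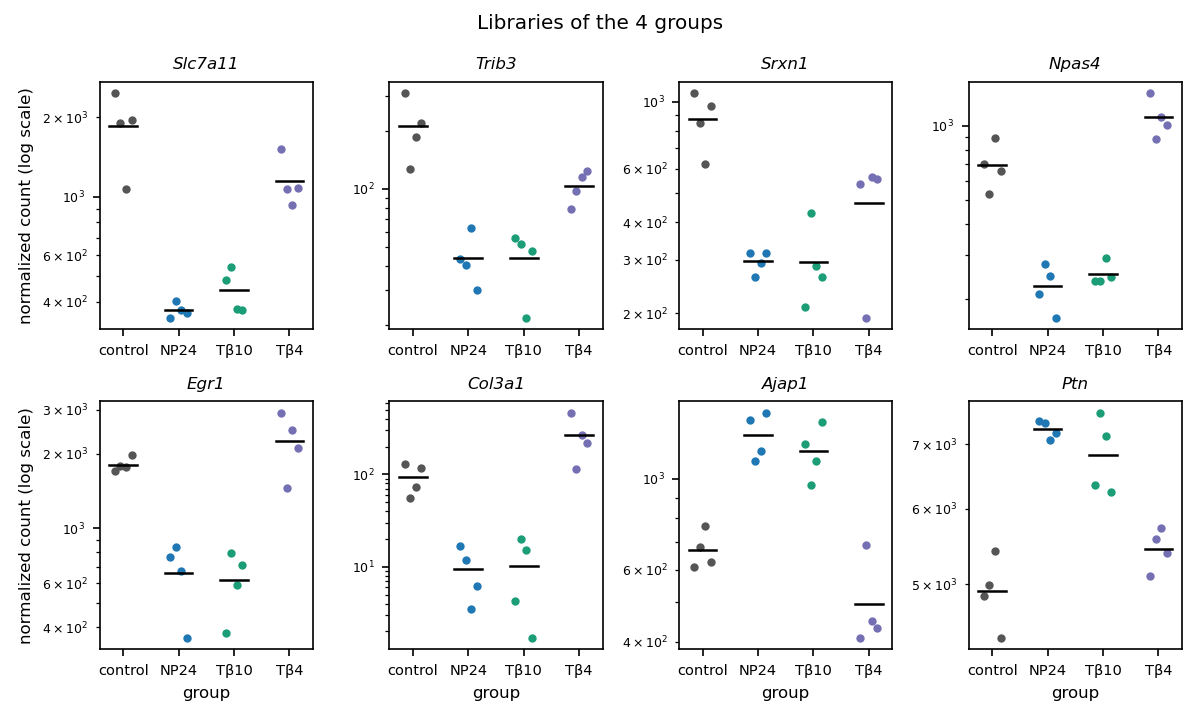
Normalized counts per library on a logarithmic axis for 8 genes in the control, NP24, Tβ10 and Tβ4 libraries, 4 each; points are libraries and bars group means. For Slc7a11, Npas4 and Egr1 the NP24 and Tβ10 libraries lie low while the Tβ4 libraries lie higher. For Ajap1 the NP24 and Tβ10 libraries lie above those of the control and Tβ4.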

How the data were processed

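RNA of the 16 libraries was extracted with an RNeasy Micro kit and made into libraries with a SMARTer stranded total RNA kit, per the labels' protocols. The submitters' processing notes name FastQC, HISAT, HISAT2, featureCounts, DESeq2 and build GRCm38; versions, annotation release and strand setting are not given in the sources used here, so genes that overlap on opposite strands are uncertain. The deposited signal is reads per gene scaled by the authors with 1 size factor for each library: at least 99.97% of the values of each library were whole multiples of 1 read, within 0.01 read, and the reads recovered in this way were used for the count tests. The table had 0 columns of no sample, and the fold changes and p-values the authors deposited were not used.

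Differences were fitted with limma 3.58.1 (R 4.3.3, trend on mean level) on log2(value + 1) over genes that reached 10 in 4 or more libraries of the comparison. The Benjamini-Hochberg adjustment ran over all genes tested and the threshold was 0.05. NP24 against control used their 8 libraries, and the comparisons with Tβ10 and Tβ4 all 16. A fold change on this scale understates that of low genes. On simulated counts for this comparison with 200 changed genes among 21126, 80% of the 100 genes changed by 1 on the log2 scale and 97% of the 100 changed by 2 were recovered. The changed genes were drawn from those with a mean of at least 50, so recovery of lower genes was not measured. Simulated libraries differed only in depth, in those changes and in random spread, without the differences in mitochondrial rRNA or length slope seen here.

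The members and gene lists were chosen with earlier results of these data known. The rule named, among genes past the threshold, the 25 with the largest difference in each direction (mean of at least 50, no overlap), those that passed in all 8 fits leaving out 1 library, the 10 most abundant in each direction, list members past the threshold with up to 4 others by p, the leading 8 in each direction of the direct comparisons (or 3 where fewer than 3 passed), and Tmsb4x, Tmsb10 and Sspo. The text prints part of these, and some list members are not reported here. Lists are described by counts and medians. Nqo1, Sqle, Hmgcs1, Arc and Bak1 lie outside the rule and were chosen after their values were seen. Gene positions came from GENCODE M21 (45596 of 45724 identifiers matched without their version), and promoters from RefSeq. The alternatives tried were count tests on the recovered reads (edgeR 4.0.16, DESeq2 1.42.0), other scalings, pseudocounts, filters, covariates, a replicate block and leaving out each library.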

Additional observations from a re-analysis of the deposited data

Results flagged for a closer look

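Among 100 groups of 4 libraries examined (the genes given by library, in each of the 2 groups, and the library measures), 7 had 1 library far from the other 3, its gap to the nearest, as a share of the group's range, exceeding Dixon's 95% critical value. Chance alone gives about 1 such group in 20. Acta2 was highest in NP24 library 1, at 46.3 normalized counts, where the other 3 held 5.80 to 7.46. Mbp was lowest in control library 3, at 4235 normalized counts. Neat1 was lowest in NP24 library 4, at 153, and Tmsb4x was lowest in the same library, at 2519. Ntrk2 was lowest in NP24 library 2, at 14817, which is still above every control. Sqle was highest in control library 1, at 2903. The slope of log2 level on gene length was lowest in control library 1, at -0.109, the library without which the fewest genes passed.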

How the results depend on the processing

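For NP24 against control, 572 genes passed, and the count was 124 with a log2 difference of at least 1 required, 1178 in DESeq2, 365 with no filter on low values, 120 with the spread of all 16 libraries, 1067 with the length slope as a covariate and 0 with the share of mitochondrial rRNA as a covariate. Leaving out 1 library gave 106 to 760. With edgeR (518), TMM scaling (561), library-size scaling (764), pseudocounts of 0.1 and 10 (482 and 674) and a filter at 50 (679) it stayed within 1.5 times. Against Tβ10 the count was 0 in every setting run. Against Tβ4, 507 genes passed, with 262 at a log2 difference of at least 1, 1172 in DESeq2 and 109 within the 8 libraries compared, and leaving out 1 library gave 104 to 1392.

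With the replicate block 477 genes passed against control, 0 against Tβ10 and 341 against Tβ4. The labels do not state that the replicate numbers pair the libraries. The deviations of NP24 and control libraries of the same number correlated at 0.0251, -0.00665, 0.0203 and -0.0152, and not every library correlated best with its own number. These correlations run over all genes and would miss a pairing that touched few of them, so they do not settle whether libraries were paired.

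Of 3347 combinations of a gene given in the text and an alternative setting, 2561 kept the side of the threshold, 776 lost the call and 10 gained one. Direction was compared only where the gene passed in the main fit or the alternative, and there 0 reversed. Genes that passed in neither could change sign, as Arc did (-0.79 to 0.14 over the settings) and Nqo1 (-0.95 to 0.41). With the mitochondrial rRNA share as a covariate all 155 genes described as changed lost the call, with the spread of all 16 libraries 103 did, and with DESeq2 2 did. Precision is limited by 4 libraries a group and, for genes under about 50 normalized counts such as Nqo1 and Sspo, by few reads. The cause of these shifts was not tested.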
